A study of Mus musculus with 19 samples.

Results

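Histone-modifying enzymes were examined in hippocampal slices that lack FMRP, the RNA-binding protein encoded by Fmr1. The set held every gene of the deposited tables whose symbol begins with Kmt2a to Kmt2e, Kdm, Hdac, Kat2 to Kat8, Prmt, Ehmt, Setd or Setdb, or Sirt, together with Ep300 and Crebbp. It held 69 of 14459 genes, and all 69 were abundant enough to be tested. They were 16 lysine methyltransferases, 18 lysine demethylases, 9 acetyltransferases, 11 zinc-dependent deacetylases, 7 sirtuins and 8 arginine methyltransferases. Setd2 and Setd5 were left out by name.

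The study compared Fmr1 KO mice, in which the X-linked Fmr1 gene is disrupted in every cell, with WT littermates, all male, on a C57BL/6 background and aged 28 to 35 days. For each replicate, pools were made of 8 to 10 acute slices (400 µm thick) taken from 6 to 8 mice, then rested at 30 °C for 3 to 4 h and given cycloheximide at 100 µg/ml, which holds ribosomes on the mRNA. Ribosome footprints (RPF, the mRNA fragments that ribosomes shield from nuclease) and cytoplasmic RNA came from the same lysate. Both were deposited as estimated counts and as TPM, an abundance per unit of the length assigned to each gene, for 3 KO and 4 WT libraries of each kind. The protocol describes slices cut to enrich CA1 by removing CA3, whereas the labels' source is hippocampal-cortical.

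Histones carry methyl and acetyl groups that are written by methyltransferases (Kmt, Ehmt, Setd, Prmt) and acetyltransferases (Kat, Ep300, Crebbp) and removed by demethylases (Kdm) and deacetylases (Hdac, Sirt). Acetylation, and methylation of lysine 4 of histone H3, accompany active promoters and enhancers, while methylation of lysine 9 accompanies silenced chromatin. In neurons these enzymes take part in activity-dependent transcription and memory, and mutations in several of them cause intellectual disability. Some members of the set act mainly outside the nucleus, such as the mitochondrial sirtuins Sirt3, Sirt4 and Sirt5.

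Footprint libraries held 15.57 to 22.71 M estimated counts and RNA libraries 4.97 to 9.96 M. Fmr1 footprints were 4.81, 4.59 and 5.03 TPM in KO slices, against 46.3, 44.7, 43.8 and 42.7 TPM in WT slices, which fits the genotype labels. Summed footprints of 5 markers each were 258 to 276 TPM in KO and 281 to 287 TPM in WT for CA1, 205 to 214 TPM in KO and 209 to 221 TPM in WT for CA3, and 385 to 407 TPM in KO and 385 to 401 TPM in WT for the dentate gyrus, so CA3 markers were present. Markers of other cells also differed: summed footprints of 8 microglia markers were 391 to 413 TPM in KO libraries and 466 to 489 TPM in WT libraries, and all 8 fell. Of 6 meningeal fibroblast markers 5 fell, with sums of 1059 to 1078 TPM in KO and 1340 to 1528 TPM in WT, and of 6 thalamic markers 4 rose, with sums of 120 to 126 TPM in KO and 86.9 to 114 TPM in WT. The part of these differences in the results on the enzymes was not tested, and in bulk tissue fewer cells of a type and less RNA per cell cannot be told apart. No value in the tables is 0 and the lowest in each library is 0.88 to 1 TPM, so the weakest members lie near a floor and their fold changes are uncertain.

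In footprints, 8 enzymes rose and 4 fell in KO slices, and every change was small, between 0.12 and 0.23 on the log2 scale upward and between -0.18 and -0.15 downward. The 8 that rose were the class I deacetylases Hdac1, Hdac2 and Hdac3, the demethylase Kdm1a, the acetyltransferase Kat7, the arginine methyltransferases Prmt5 and Prmt8, and the sirtuin Sirt2. The 4 that fell were Kmt2c, Kmt2d and Kmt2e of the MLL family and the acetyltransferase Kat6a. The 12 are 17.4% of the 69 members, while 18.5% of all genes tested passed the same threshold (adjusted p under 0.05 in edgeR's quasi-likelihood test), so the set as a whole changed about as often as genes in general. Upward calls made 11.6% of the members and 8.15% of all genes, and downward calls 5.8% and 10.4%. The median log2 fold change was 0.03 over the members and -0.000149 over all genes.

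**Figure D1:**
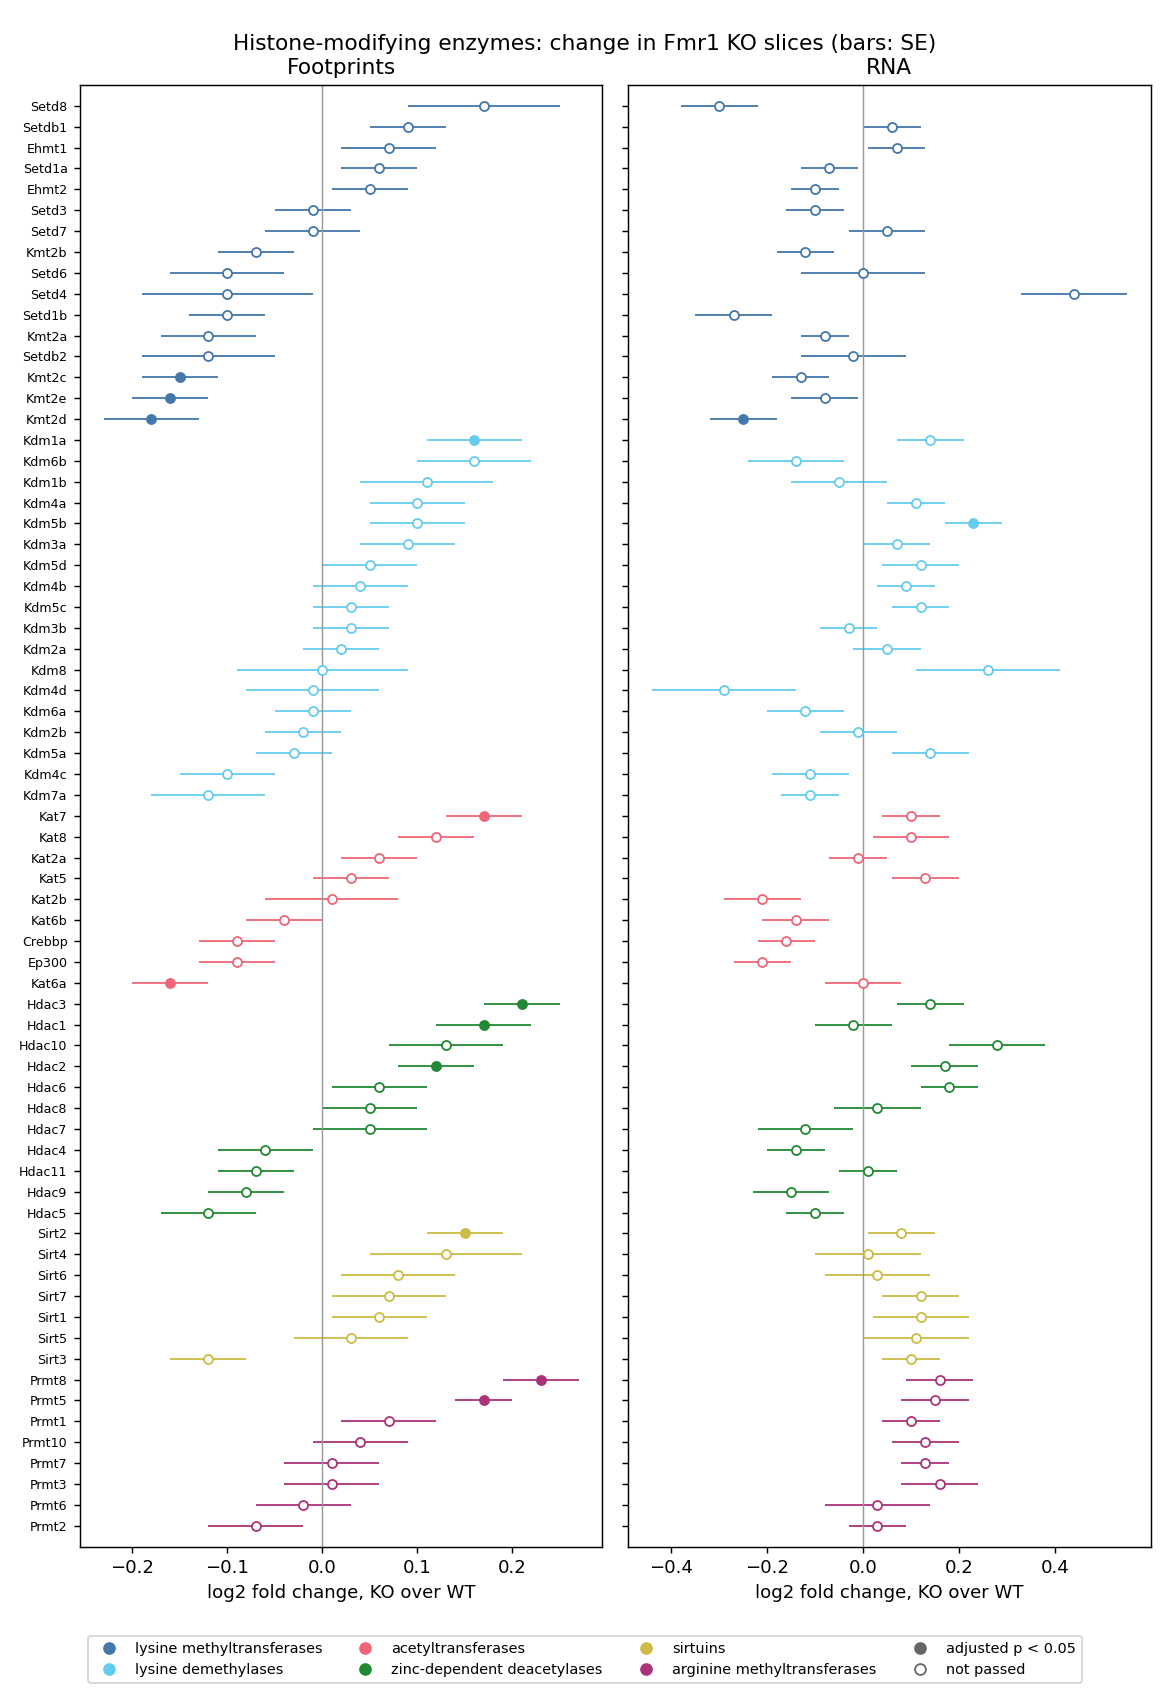
Log2 fold change (KO over WT) of each of the 69 enzymes in footprints (left) and RNA (right), with SE as bars and filled points for an adjusted p under 0.05. Filled points in footprints number 8 above 0 and 4 below, and in RNA 1 on each side.

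The class I deacetylases remove acetyl groups from histone tails as subunits of corepressor complexes. Hdac3, the deacetylase of the NCoR and SMRT corepressors, had 43.7, 41.0 and 44.0 TPM of footprints in KO slices and 37.4, 35.8, 38.4 and 36.2 TPM in WT slices. Its log2 fold change was 0.21 ± 0.04 (SE), with an adjusted p of 0.00536 in edgeR. Every KO library lay above every WT library, and the call held when any one library was left out. Such separation is no support beyond the test that chose the gene, here and for the members below.

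Hdac1 (chr4:129516104-129542646) and Hdac2 (chr10:36974297-37001889) are the paired catalytic subunits of the Sin3, NuRD and CoREST complexes. Hdac1 had 27.4, 25.6 and 24.9 TPM of footprints in KO and 22.4, 21.8, 23.4 and 24.3 TPM in WT (log2 fold change 0.17 ± 0.05, adjusted p = 0.0254 in edgeR). Hdac2, the more abundant of the pair, had 83.5, 76.2 and 81.3 TPM in KO and 75.3, 70.7, 72.3 and 75.4 TPM in WT (0.12 ± 0.04, adjusted p = 0.0487 in edgeR). Neither gene's KO and WT libraries overlapped, but the margin was narrow: 24.9 against 24.3 TPM for Hdac1 and 76.2 against 75.4 TPM for Hdac2. The Hdac1 call was lost without KO library 1 (adjusted p = 0.0921 in edgeR), WT library 1 (0.0553) or WT library 2 (0.0636), and in DESeq2 (0.0627). The Hdac2 call was lost without any one of 6 of the 7 libraries, all but KO 2, with adjusted p values up to 0.156 in edgeR. Hdac8, the other class I enzyme, had 19.7 ± 1.07 TPM in KO and 19 ± 0.562 TPM in WT (SD, n = 3 and 4; log2 fold change 0.05) and did not pass. All 4 class I enzymes thus had fold changes above 0 in footprints, with a median of 0.14.

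Beyond class I, no zinc-dependent deacetylase passed. The class IIa enzymes, which move between nucleus and cytoplasm with neuronal activity, had 3 of 4 footprint fold changes below 0, with a median log2 fold change of -0.07 and Hdac5 lowest at -0.12 ± 0.05 (adjusted p = 0.089 in edgeR). The most abundant deacetylase, Hdac11, had 89.5, 85.8 and 83.8 TPM of footprints in KO and 91.1, 88.3, 94.0 and 86.8 TPM in WT. The least abundant, Hdac7, had 2.45, 2.54 and 2.54 TPM in KO and 2.44, 2.36, 2.37 and 2.52 TPM in WT. The KO and WT libraries of both genes overlapped.

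Kdm1a (LSD1, chr4:136550533-136602787) is the flavin-dependent demethylase that works beside Hdac1 and Hdac2 in the CoREST complex. It had 46.0, 41.5 and 41.6 TPM of footprints in KO slices and 39.3, 35.4, 40.5 and 38.1 TPM in WT slices. The log2 fold change was 0.16 ± 0.05, with an adjusted p of 0.0314 in edgeR, and the KO libraries lay above all WT libraries. The call was lost without KO library 1 (adjusted p = 0.104 in edgeR), WT library 2 (0.0738) or WT library 4 (0.0777). None of the other 17 demethylases passed in footprints, and over the 18 the median log2 fold change was 0.03, with 11 above and 7 below 0. Kdm4d, the least abundant, had 1.89, 1.75 and 1.85 TPM in KO and 1.77, 1.90, 1.96 and 1.75 TPM in WT, close to the floor of the tables.

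Among the arginine methyltransferases, Prmt8 and Prmt5 rose. Prmt8 (chr6:127689009-127769467), a brain-enriched enzyme anchored to the plasma membrane, had 48.8, 46.4 and 46.9 TPM of footprints in KO and 40.0, 38.6, 41.2 and 40.3 TPM in WT. This was the largest footprint fold change of the 69 members (log2 fold change 0.23 ± 0.04, adjusted p = 0.00196 in edgeR). Prmt5 (chr14:54507182-54517470), the main enzyme for symmetric dimethylation of arginine, had 33.4, 33.2 and 32.3 TPM in KO and 28.4, 28.6, 29.9 and 29.4 TPM in WT (0.17 ± 0.03, adjusted p = 0.00651 in edgeR). In both genes the lowest KO library was more than 2 TPM above the highest WT library, and both calls held without any one library. Prmt1, the most abundant of the class and the major asymmetric dimethylation enzyme, had 110, 96.8 and 99.5 TPM in KO and 97.6, 90.2, 102 and 97.1 TPM in WT, and its groups overlapped. Prmt6, the least abundant, had 11.1, 10.3 and 10.6 TPM in KO and 10.6, 10.9, 11.1 and 10.4 TPM in WT.

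The acetyltransferases split. Kat7 (HBO1, chr11:95271853-95310246), a MYST-family enzyme that acetylates histones H3 and H4, had 80.1, 74.2 and 74.2 TPM of footprints in KO slices and 68.8, 63.2, 71.5 and 65.7 TPM in WT slices. It rose (log2 fold change 0.17 ± 0.04, adjusted p = 0.0162 in edgeR), although without WT library 4 the adjusted p was 0.0517. Kat6a (MOZ, chr8:22859442-22943259), of the same family, had 8.83, 8.56 and 8.35 TPM in KO and 9.50, 9.12, 10.0 and 9.43 TPM in WT. It fell (-0.16 ± 0.04, adjusted p = 0.0142 in edgeR), and without KO library 3 the adjusted p was 0.0569. The coactivators Crebbp and Ep300 did not pass, each with a footprint log2 fold change of -0.09 ± 0.04 (adjusted p = 0.129 and 0.183 in edgeR). The least abundant acetyltransferase, Kat2b, had 5.30, 5.75 and 5.95 TPM in KO and 5.45, 6.15, 5.32 and 5.62 TPM in WT.

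Sirt2 (chr7:28766752-28788665), a mostly cytoplasmic NAD-dependent deacetylase that is abundant in oligodendrocytes, had 187, 166 and 171 TPM of footprints in KO and 151, 154, 159 and 164 TPM in WT. It rose by 0.15 ± 0.04 on the log2 scale (adjusted p = 0.0297 in edgeR), with the lowest KO library 2 TPM above the highest WT library. The call was lost without KO library 1 (adjusted p = 0.0907 in edgeR) or KO library 3 (0.0566), or without WT library 1 (0.0667), 2 (0.0641) or 3 (0.0536). Summed footprints of 7 oligodendrocyte markers were 13029 to 13628 TPM in KO and 13265 to 14796 TPM in WT, with 1 marker higher and 3 lower in KO. The higher marker was Cnp (log2 fold change 0.18 ± 0.06, adjusted p = 0.0403 in edgeR), and Mag was among the lower ones (-0.20 ± 0.04, adjusted p = 0.00651 in edgeR). The part of oligodendrocyte content in the Sirt2 change was not tested. Sirt1, the least abundant sirtuin, had 7.49, 7.24 and 6.85 TPM in KO and 6.5, 6.89, 7.07 and 7.04 TPM in WT, with overlapping groups.

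Of the 16 lysine methyltransferases 3 fell in footprints and 13 did not pass. The class had 11 fold changes below 0 and a median of -0.08, which was -0.02 with the length trend removed, where none was called lower. The 3 that fell belong to the MLL family, which methylates lysine 4 of histone H3. All 5 of that family were below 0 in footprints and RNA, except that Kmt2b footprints were at 0.01 with the length trend removed. Kmt2c (chr5:25271795-25498855) and Kmt2d (chr15:98831669-98874077) place the single methyl mark at enhancers. Kmt2c had 6.86, 6.38 and 6.25 TPM of footprints in KO slices and 7.37, 6.97, 7.29 and 7.10 TPM in WT slices (log2 fold change -0.15 ± 0.04, adjusted p = 0.0141 in edgeR). Kmt2d had 9.32, 8.68 and 8.40 TPM in KO and 9.68, 10.4, 9.35 and 10.3 TPM in WT (-0.18 ± 0.05, adjusted p = 0.0224 in edgeR). Kmt2e (chr5:23433036-23504235), which binds trimethylated lysine 4 and has little catalytic activity of its own, had 14.8, 13.9 and 14.6 TPM in KO and 16.4, 15.5, 16.2 and 16.1 TPM in WT (-0.16 ± 0.04, adjusted p = 0.00949 in edgeR). KO and WT footprints did not overlap in these 3 genes, although for Kmt2d the margin was 9.32 against 9.35 TPM. The Kmt2e call held without any one library, the Kmt2c call was lost without KO library 3 (adjusted p = 0.0646 in edgeR), and the Kmt2d call was lost without KO library 2 (0.0601), KO library 3 (0.0779), WT library 2 (0.0571) or WT library 4 (0.0662).

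Kmt2a and Kmt2b, the remaining MLL enzymes, had footprint log2 fold changes of -0.12 ± 0.05 and -0.07 ± 0.04 (adjusted p = 0.105 and 0.415 in edgeR). Setd7, the most abundant methyltransferase, had 95.8, 105 and 105 TPM of footprints in KO and 106, 106, 98.6 and 98.1 TPM in WT, so its groups overlapped. Setdb2, the least abundant, had 2.11, 1.90 and 2.17 TPM in KO and 2.16, 2.36, 2.21 and 2.15 TPM in WT. Setdb2 is a lysine 9 methyltransferase, with a log2 fold change of -0.12 ± 0.07, and the other lysine 9 enzymes Ehmt1, Ehmt2 and Setdb1 had values of 0.05 to 0.09. None of these 4 passed.

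**Figure D2:**
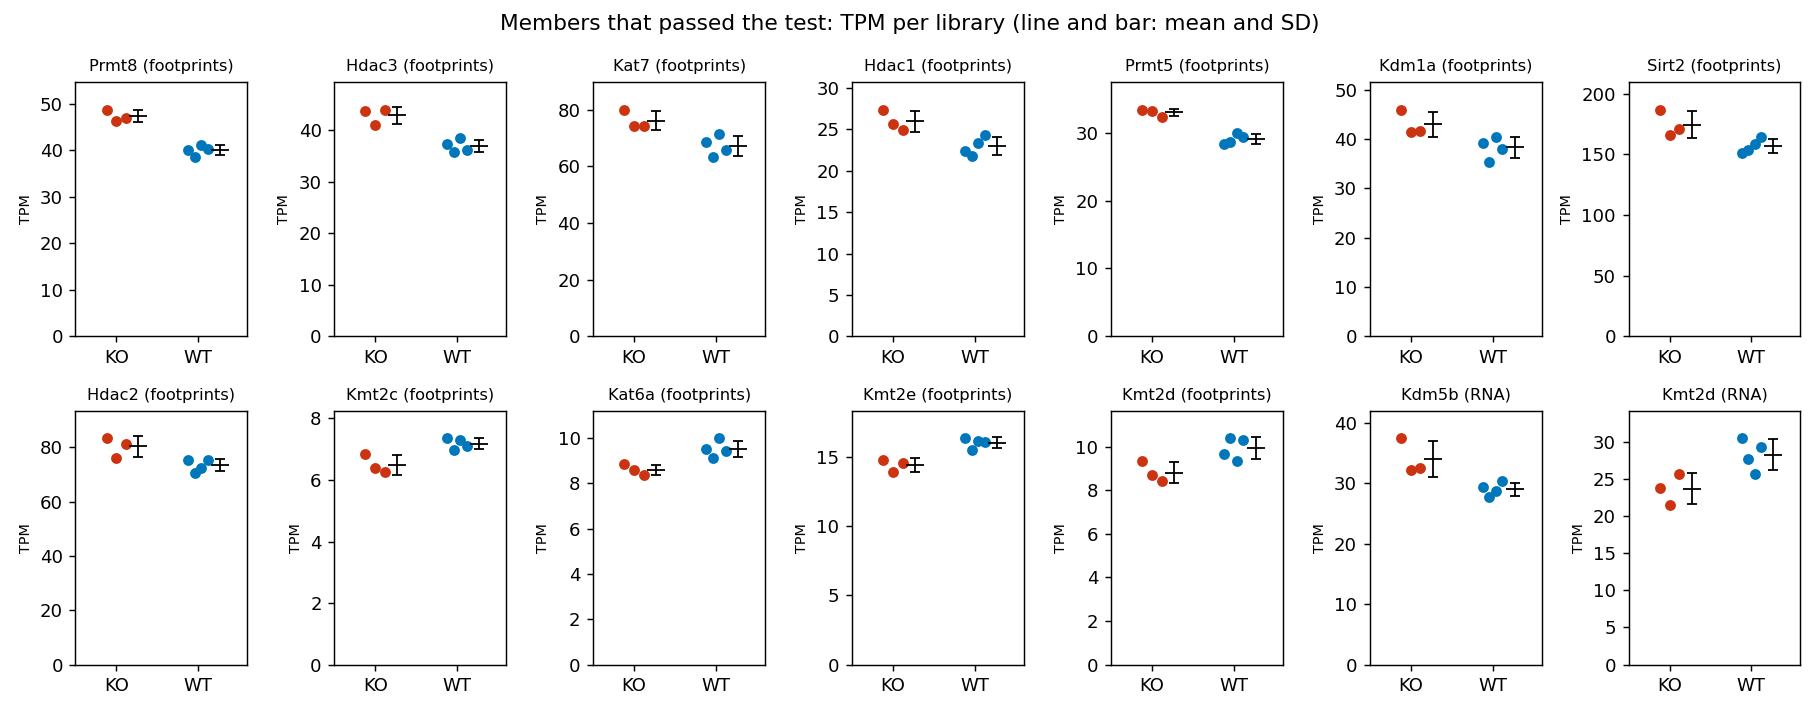
TPM of each library (points), with the mean and SD, for the enzymes that passed the test: the 12 in footprints and, in the last panels, Kdm5b and Kmt2d in RNA. KO and WT points are separate in each footprint panel and overlap in the Kmt2d RNA panel. The panels were chosen by the test on the same libraries, so this separation is no further support. Footprints of Hdac10, Kmt2b and Setd6 were also separate but did not pass (adjusted p = 0.449, 0.415 and 0.61 in edgeR). The share of all genes with separate libraries is not given here.

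The enzymes that rose and those that fell differed in the length behind their TPM values. Length was derived by dividing counts by TPM and is given relative to the median gene. Whether it covers the untranslated parts of the mRNA cannot be told from these values. The 8 enzymes that rose had lengths between 0.824 and 1.86 times the median. The 4 that fell were at 4.12 (Kmt2e), 4.42 (Kat6a), 10.9 (Kmt2c) and 12.4 times (Kmt2d). Of the 9 members longer than 4 times the median, which also include Kmt2a, Kmt2b, Setd1b, Crebbp and Ep300, all 9 had footprint fold changes below 0, with a median of -0.12 on the log2 scale (8 of 9 and -0.03 with the length trend removed). Long genes in general were lower: of the 501 genes of that length band 378 had fold changes below 0. Their median log2 fold change was -0.07, with 24.6% called lower and 1.4% called higher in KO. Across the 69 members, Pearson's r of log2 fold change with log2 length was -0.42 and Spearman's rho -0.35, against -0.07 and -0.09 over all 14438 genes. These are correlations across genes of the same 7 libraries, given as a description.

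When the length trend was removed within each library, none of the 4 long enzymes kept its call. The log2 fold change and adjusted p in edgeR became -0.10 and 0.0692 for Kmt2e, -0.10 and 0.101 for Kat6a, -0.05 and 0.361 for Kmt2c, and -0.07 and 0.266 for Kmt2d. All 8 enzymes that rose stayed above the threshold under this setting, which called 19.5% of all genes, 10.1% higher and 9.34% lower. A further 5 passed upward, which made 13: Kdm3a (log2 fold change 0.14), Kdm4a (0.14), Kdm5b (0.16) and Kdm6b (0.21), all Jumonji demethylases, and the lysine 9 methyltransferase Setdb1 (0.14). Their adjusted p values lay between 0.0224 and 0.0427 in edgeR. The calls on the short enzymes therefore did not depend on this setting, and the calls on the long ones did.

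**Figure D3:**
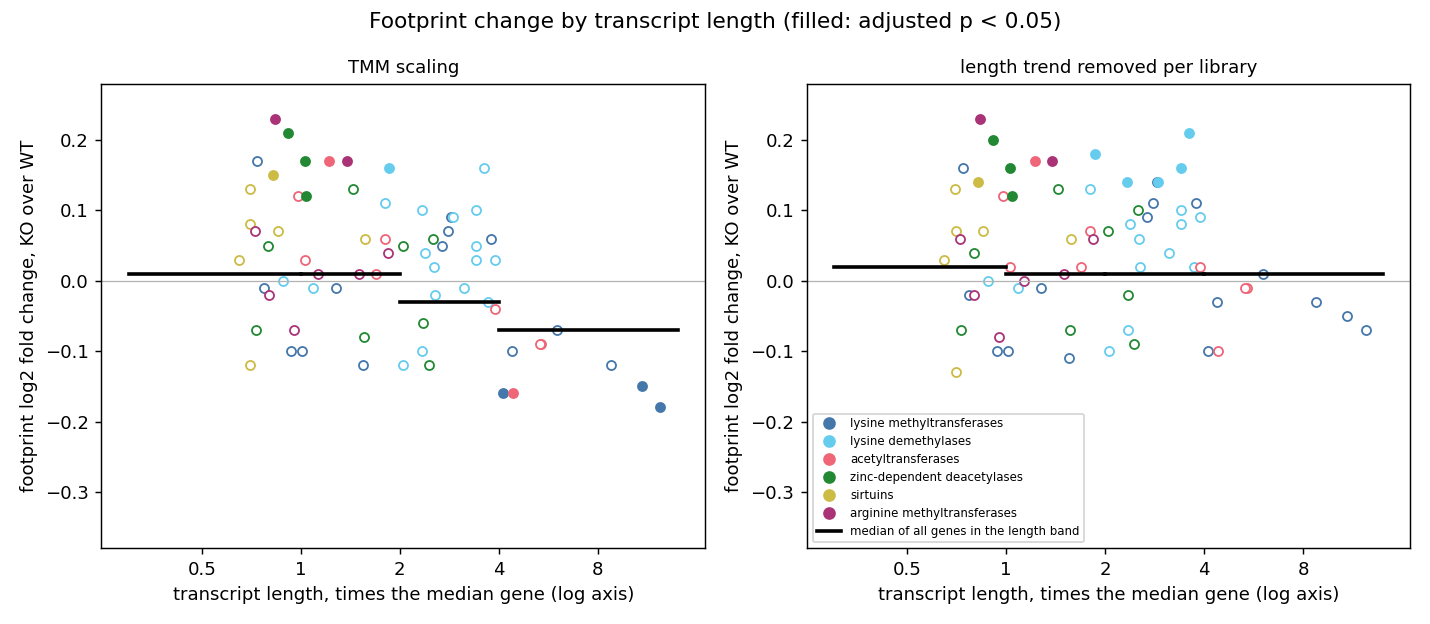
Footprint log2 fold change (KO over WT) of each enzyme against length relative to the median gene (log axis). Length is the factor from counts and TPM, labelled transcript length on the axis. The left panel has TMM scaling, and the right has the length trend of each library removed. Black bars are medians of all genes in the length band. The 4 filled points below 0 on the left lie beyond 4 times the median length and are open on the right.

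In cytoplasmic RNA only 2 enzymes passed the test. Kdm5b, a demethylase that removes the trimethyl mark from lysine 4 of histone H3, rose, and Kmt2d, which adds methyl groups to the same residue, fell. They are 2.9% of the members, against 4.89% of all genes tested (2.11% higher and 2.77% lower), and the median RNA log2 fold change of the members was 0.03. Kdm5b RNA was 37.5, 32.2 and 32.5 TPM in KO slices and 29.3, 27.7, 28.7 and 30.3 TPM in WT slices (log2 fold change 0.23 ± 0.06, adjusted p = 0.0389 in edgeR). Kmt2d RNA was 23.8, 21.5 and 25.7 TPM in KO and 30.5, 27.6, 25.6 and 29.3 TPM in WT (-0.25 ± 0.07, adjusted p = 0.04 in edgeR). The KO libraries of Kdm5b lay above all WT libraries, whereas for Kmt2d the highest KO library reached 25.7 TPM, above the lowest WT library. Kdm5b footprints, at 26.9, 23.3 and 23.6 TPM in KO and 22.5, 21.4, 23.6 and 23.5 TPM in WT, did not pass (0.10 ± 0.05, adjusted p = 0.165 in edgeR).

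Both RNA calls were close to the threshold. The Kdm5b call was lost without any one of 6 libraries, all but KO 3, with adjusted p values of 0.058 to 0.131 in edgeR, and in limma (0.117). The Kmt2d call was lost without KO library 1 (adjusted p = 0.102 in edgeR) or 2 (0.163), without WT library 1 (0.108), 2 (0.0618) or 4 (0.105), in limma (0.126) and, at 0.0572, with the length trend removed. Under that setting Kdm5b (log2 fold change 0.26, adjusted p = 0.012 in edgeR) and the cytoplasmic tubulin deacetylase Hdac6 (0.20, 0.0471) passed upward and no member downward, against 5.94% of all genes, 3.07% higher and 2.87% lower.

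The promoters of the pair are shown because they are the members that passed the test in RNA. The sequences are RefSeq's (GRCm38.p6), mostly upstream of an annotated start, in the direction of transcription, with each CG in capitals. The Kdm5b window lies on the plus strand at chr1:134559928-134560227, and the Kmt2d window on the minus strand at chr15:98871156-98871455, which is inside the annotated Kmt2d gene.
Kdm5b: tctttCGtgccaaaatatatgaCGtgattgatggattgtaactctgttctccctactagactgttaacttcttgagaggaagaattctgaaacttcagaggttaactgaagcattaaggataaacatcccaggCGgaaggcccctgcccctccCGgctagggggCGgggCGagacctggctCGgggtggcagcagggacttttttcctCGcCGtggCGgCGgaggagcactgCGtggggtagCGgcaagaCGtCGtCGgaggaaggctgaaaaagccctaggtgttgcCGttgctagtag
Kmt2d: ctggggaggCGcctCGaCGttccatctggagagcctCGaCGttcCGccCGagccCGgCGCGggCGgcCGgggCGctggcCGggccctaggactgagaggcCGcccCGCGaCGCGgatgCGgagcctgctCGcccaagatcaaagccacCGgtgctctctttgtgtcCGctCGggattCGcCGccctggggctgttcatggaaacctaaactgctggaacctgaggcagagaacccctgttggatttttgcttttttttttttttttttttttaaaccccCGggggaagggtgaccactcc
The Kdm5b window held 17 CG and the Kmt2d window 27, against a median of 20 over the 57 members with an entry and 20 over the 10897 genes of the tables with one. The letters TGACG, the core of the site bound by CREB, were searched on both strands and occurred once in the Kdm5b window and not in the Kmt2d window. They occurred in 33.3% of the members' windows and 30.5% of those of the tables' genes.

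Several enzymes fell just short in RNA. Setd8 (Kmt5a), which places the single methyl group on lysine 20 of histone H4, had 19.2 ± 1.11 TPM in KO and 23.4 ± 1.2 TPM in WT (SD, n = 3 and 4; adjusted p = 0.0621 in edgeR). Setd4 had 9.35 ± 0.924 TPM in KO and 6.70 ± 0.659 TPM in WT (adjusted p = 0.06 in edgeR). Setd1b, a SET1-type lysine 4 methyltransferase, had 9.46 ± 0.942 TPM in KO and 11.6 ± 0.842 TPM in WT (adjusted p = 0.0571 in edgeR), and Ep300 had 19.9 ± 1.43 TPM in KO and 22.9 ± 1.47 TPM in WT (adjusted p = 0.0585 in edgeR). By class, the RNA log2 fold changes were above 0 for 8 of 8 arginine methyltransferases (median 0.13) and 7 of 7 sirtuins (median 0.10), and below 0 for 12 of 16 lysine methyltransferases (median -0.08). None of the arginine methyltransferases or sirtuins passed on its own. Positive RNA values were not particular to these classes: they were seen in 17 of the 18 members no longer than the median gene. Over all genes of that length it was 3377 of 6671. All these values come from the same 7 libraries. Over the 4 class IIa deacetylases the median was -0.13, with all 4 below 0 and none past the threshold.

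Among the 8 enzymes whose footprints rose, RNA log2 fold changes were between -0.02 and 0.17 and none passed. Hdac1 had the widest gap, with 25.5 ± 1.95 TPM of RNA in KO and 25.7 ± 2.61 TPM in WT. Among the 4 whose footprints fell, Kat6a RNA was 14.2 ± 1.59 TPM in KO and 14.1 ± 1.30 TPM in WT, while Kmt2d RNA fell too.

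Translational efficiency (TE), footprints relative to RNA, was tested with an interaction term for genotype and assay in a fit of the 14 libraries. No member passed, against 0.0346% of all genes (5 of 14435), 0.0139% higher and 0.0208% lower. DESeq2 and limma also called 0 members, while they called 90 (0.623%) and 70 genes (0.484%) over the whole table. At an unadjusted p under 0.05 there were 6 members in edgeR, 5 in DESeq2 and 5 in limma. The share at that level over all genes was 10.8% (1564 genes) in edgeR, 7.98% in DESeq2 and 14.2% in limma. The 6 include Setd8, whose footprints per RNA were 0.595 ± 0.0808 in KO and 0.432 ± 0.0422 in WT (SD, n = 3 and 4; TE log2 fold change 0.46 ± 0.12, adjusted p = 0.0961 in edgeR). In Setd8 the footprint mean was above WT and the RNA mean below it. The others were Setd4 (TE log2 fold change -0.55 ± 0.14, adjusted p = 0.274 in edgeR), Sirt3 (-0.23 ± 0.08, 0.234), Kdm6b (0.28 ± 0.13, 0.405), Ehmt2 (0.15 ± 0.07, 0.411) and Kdm5a (-0.19 ± 0.09, 0.447). For comparison, the TE log2 fold change of Fmr1 was -1.21 ± 0.15 (adjusted p = 0.00119 in edgeR).

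In WT slices the enzymes spanned a wide range of ribosome loading. Over the 69 members the ratio of footprint TPM to RNA TPM, taken within lysates, had a median of 0.548 (quartiles 0.428 and 0.795), against 0.785 (0.497 and 1.17) over all genes. Both assays were scaled by the same length per gene. Whether that length includes untranslated parts cannot be told from these values, and neither can their effect on the ratio. Hdac2 stood highest at 2.15 ± 0.0584 (SD, n = 4), with 73.4 TPM of footprints for 34.2 TPM of RNA. Its partner Hdac1 stood at 0.899, although the pair had RNA levels of 34.2 and 25.7 TPM. Kmt2e (1.33 ± 0.103), Sirt1 (1.24 ± 0.0679) and Setd7 (1.23 ± 0.103) followed, and these 3 lay within about 1 SD of one another.

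At the low end were Ehmt2 (G9a), the lysine 9 dimethyltransferase, at 0.180 ± 0.0110, Hdac5 at 0.182 ± 0.0111 and the MYST enzyme Kat6b at 0.182 ± 0.0232, which did not differ beyond their spread. Ehmt2 had 154 TPM of RNA in WT and 27.6 TPM of footprints, while its partner Ehmt1 had 24.4 TPM of RNA and 11.3 TPM of footprints, a ratio of 0.462. Sirt3 (0.220 ± 0.0192) and Setd3 (0.285), an actin histidine methyltransferase, were also low despite 164 and 181 TPM of RNA. By class the median ratio ran from 0.459 in the lysine methyltransferases and 0.472 in the zinc-dependent deacetylases through 0.506 in the arginine methyltransferases, 0.609 in the acetyltransferases and 0.664 in the demethylases to 0.831 in the sirtuins.

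**Figure D4:**
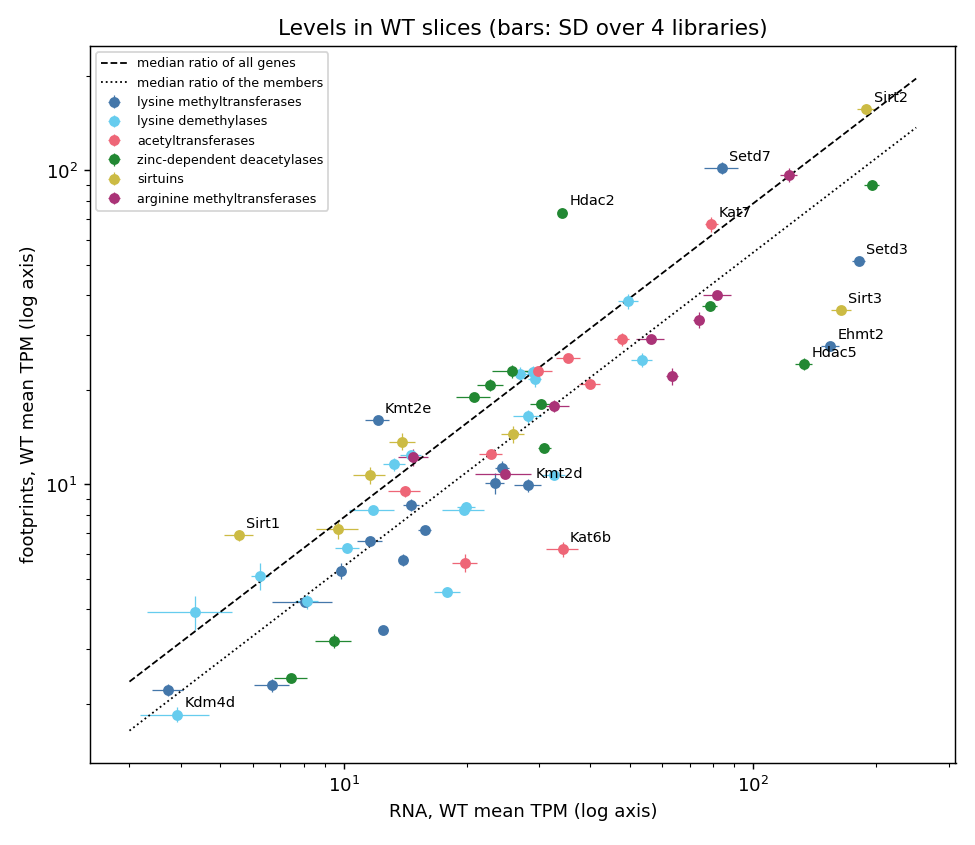
Mean footprint TPM against mean RNA TPM of each enzyme in WT slices (both axes log), with SD over 4 libraries as bars and lines at the median ratio of all genes (0.785) and of the enzymes (0.548). Hdac2 lies above both lines at 73.4 TPM of footprints for 34.2 TPM of RNA, and Ehmt2 and Hdac5 lie far below.

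Genes that work with these enzymes were counted in footprints too, against 8.15% of all genes higher and 10.4% lower. Of 30 deacetylase complex subunits 4 rose and none fell, with a median log2 fold change of 0.05, among them the histone chaperones Rbbp4 and Rbbp7 (both 0.14 ± 0.04) of Sin3 and NuRD, with adjusted p values of 0.0294 and 0.0259 in edgeR, and the CoREST protein Rcor2 (0.23 ± 0.07, adjusted p = 0.0324 in edgeR). Of 14 subunits of the lysine 4 methyltransferase (COMPASS) complexes 1 rose and 2 fell, with Bod1l at -0.21 ± 0.04, the MLL partner Men1 at -0.17 ± 0.05 and the SET1 subunit Wdr82 at 0.10 ± 0.03 (adjusted p = 0.00501, 0.0375 and 0.0426 in edgeR). Of 35 acetyltransferase complex subunits 2 rose and 1 fell. Of 25 other histone-modifying enzymes 5 rose and 2 fell, among them the arginine methyltransferase Carm1, with 24.0 ± 0.49 TPM in KO and 21.5 ± 0.236 TPM in WT (SD, n = 3 and 4; adjusted p = 0.015 in edgeR), and the lysine 9 methyltransferase Prdm2 at -0.15 ± 0.04 (adjusted p = 0.0166 in edgeR). With the length trend removed, the other enzymes gave 7 higher and 0 lower, and Prdm2, 3.73 times the median length, was at -0.09 (adjusted p = 0.0781 in edgeR). Over all genes that setting called 10.1% higher and 9.34% lower. The acetyltransferase complexes then gave 3 higher and 0 lower and the BET readers 1 higher, and the counts of the deacetylase complexes and COMPASS stayed at 4 and 0 and at 1 and 2. None of the 3 BET readers of acetyl-lysine passed with TMM scaling. In RNA, 2 deacetylase complex subunits rose and 2 COMPASS subunits fell, and no gene of the other partner lists passed. Over all genes tested in RNA, 2.11% were higher and 2.77% lower.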

How the data were processed

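Footprints and cytoplasmic RNA were measured in 14 libraries of Fmr1 KO and WT slices (19 samples are labelled, and 5 are not analysed here). The submitters' processing notes list cutadapt 1.7.1, Trimmomatic 0.32, Bowtie2 2.1.0, TopHat2 2.0.9, SAMtools 0.0.19, bedtools, RSEM 1.2.11 and mm10, without their roles. The authors deposited estimated counts and TPM for 14459 genes in each assay. Dividing counts by TPM gives the product of 1 factor per gene and 1 per library (within 9.66e-15, natural log). The factor per gene was used as its length. Counts and TPM alone do not say whether it spans the whole transcript or only the coding part. TPM has a floor near 1 and sums to 1008322 to 1014087. Within groups, a single axis between libraries carried only 1.93% (RNA) and 3.74% (footprints) of the variance, against at least 18.1% for each other. An adjustment of replicate sets is not given in the sources used here, and p-values would be too small if one was made.

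Estimated counts were rounded and tested per assay, over all genes, with edgeR 4.0.16 in R 4.3.3 (filterByExpr with minimum count 10, TMM scaling, quasi-likelihood F-test, threshold 0.05 on p adjusted by Benjamini-Hochberg). Each SE was derived from the fold change and its F statistic. DESeq2 1.42.0 and limma 3.58.1 on log2(TPM + 1) were alternatives, with RLE or total scaling, no filter, a replicate block, a covariate for replicate sets, 1 TPM subtracted, the length trend removed, all libraries in 1 fit, and each library left out. The TE fit took libraries of a lysate as independent. The fits were also run on simulated counts with known changes. The simulation held no length trend between libraries and no replicate sets, so it cannot show whether p-values are too small in these data. Library depth limits precision (median gene count 329 to 482 in footprints and 114 to 229 in RNA).

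The members and gene lists were chosen with earlier results of these data known. Library values are given for members past the threshold in any test and for the most and least abundant of each class in WT footprints, and up to 3 genes by smallest footprint p in each partner list. Of the members 67 matched RefSeq symbols and 2 a synonym, and coordinates are of GRCm38.p6. Correlations of deviations between same-numbered KO and WT libraries were -0.0995, -0.0779 and -0.34 in RNA and -0.112, -0.00151 and -0.443 in footprints. Between footprints and RNA of the same genotype and number, which share a lysate, they were only -0.0413 to 0.163. These correlations therefore cannot show whether replicate numbers pair KO with WT samples. Replicates pool different slices, and the labels do not say whether mice were shared between pools.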

Additional observations from a re-analysis of the deposited data

Results flagged for a closer look

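One library value stood apart from its group. Hdac2 RNA in WT library 4 was 35.4 TPM, while the other 3 WT libraries lay between 33.7 and 33.8 TPM, a gap of 0.902 of the group's range which is above Dixon's critical value for 4 samples. It was the only such value among 44 groups of 4 WT libraries examined for 22 members, and chance alone gives about 1 in 20. KO libraries number 3 per assay and were not examined this way.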

How the results depend on the processing

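No fold change of the 12 members called in footprints or the 2 called in RNA changed sign under the alternatives run. Among members named without a call, Kmt2b, Kat6b and Kdm5a footprints, at -0.07, -0.04 and -0.03, were 0.01, 0.02 and 0.02 with the length trend removed. Of the 12 footprint calls, Hdac3, Prmt5 and Prmt8 held under all 17 alternatives. The count of members higher in footprints (8) was 3 with the replicate block and 13 with the length trend removed, and ranged from 4 to 9 when single libraries were left out. Limma ended the footprint calls on Hdac2, Kdm1a, Kat6a, Kmt2c and Kmt2d, with adjusted p values of 0.0568 to 0.0885. The count lower in footprints (4) was 1 with limma, 1 with the replicate block and 0 with the length trend removed, and ranged from 1 to 5. For RNA, the count higher (1) was 0 with the replicate block or the replicate-set covariate, 2 with 1 TPM subtracted or the length trend removed and 3 with all libraries in 1 fit, and ranged from 0 to 3. With limma it was 1, but the gene was Setd4 (adjusted p = 0.0486) and not Kdm5b. The count lower (1) was 0 with limma, the replicate block, the replicate-set covariate or the length trend removed, and 3 with 1 TPM subtracted or all libraries in 1 fit, and ranged from 0 to 3. Over all genes the replicate block gave 1304 footprint calls instead of 2677 and 204 RNA calls instead of 678, with numbers that share no stated source. The cause of these shifts was not tested. TE calls among the members were 0 under every alternative run. The median log2 ratio of footprints to RNA in WT (-0.87) was -0.93 with 1 TPM subtracted, and -0.88 to -0.84 with 1 library left out. With 3 KO libraries and fold changes under 0.3 on the log2 scale, most calls lie close to the threshold, and fold changes of members near the floor of 1 TPM are understated.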
